A study of Rattus norvegicus with 43 samples.

Results

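The nuclear genes for subunits of oxidative phosphorylation were described in the distal colon of rats fed 1 of 6 diets. Members were the genes whose symbol begins with Nduf and a subunit letter and number, with Uqcr, with Cox4 to Cox8 or with Atp5, together with Sdha, Sdhb, Sdhc, Sdhd and Cycs. Of 14506 symbols with a probe set of their own on the array, 77 met this rule: 32 in complex I, 4 in complex II, 7 in complex III, cytochrome c itself (Cycs), 17 in complex IV and 16 in complex V. Ndufa4 was counted in complex IV, of which its protein is known to be a subunit. The choice used gene names only, with 1 probe set per symbol, that of the highest mean over all arrays. In all, 74 members passed the filter on low signal, a median of at least 4.75 on the log2 scale. Cox8b (median 4.31), Cox8c (4.22) and the pseudogene symbol Cox6c-ps1 (4.26) lay just under it, and Cox4i2 (5.12), Cox6a2 (5.29) and Cox6b2 (5.65) were the members nearest above it. A further pseudogene symbol, Ndufs6-ps1, was tested and counted but left out of the mean levels of the complexes. Subunits encoded by mitochondrial DNA, and Cyc1, Cox6b1 and Cox7a1, were not analysed here.

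The 43 arrays came from 43 Sprague Dawley rats aged 11 weeks, each array holding the RNA of 1 animal's distal colon tissue. The diets were high-amylose wheat (HAW, n = 8), low-amylose wheat (LAW, n = 6), maize starch high in amylose and butyrylated (HAMSB, n = 9), high-amylose maize starch (HAMS, n = 8), low-amylose maize starch (LAMS, n = 7) and a control diet (CON, n = 5). The labels give only the codes. Their reading, and the placing of the 5 starch and wheat diets on a Western-type base that CON lacks, rest on what is known of the study. High-amylose starch resists digestion in the small intestine and is fermented in the large bowel, and butyrylated starch also carries esterified butyrate there. Values are deposited log2 levels, so that a difference is the log2 of a fold change. Levels of different genes are not comparable on arrays, and in whole tissue fewer cells of a type and less RNA per cell cannot be told apart.

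Complex I passes electrons from NADH, and complex II those from succinate, to ubiquinone. Complex III moves them on to cytochrome c, complex IV moves them from cytochrome c to oxygen, and the proton gradient built on the way drives ATP synthesis in complex V. Colonocytes are known to oxidise butyrate from fermentation as a main fuel, and that oxidation feeds this chain.

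Promoters are shown because nuclear subunit genes are known to share binding sequences for NRF1, for ETS factors such as GABP, for YY1 and for oestrogen-related receptors (ERR). RefSeq promoters (build GRCr8, 250 bases before to 50 after the annotated start) were matched to 67 of the 77 members by gene ID. Both strands were searched for GCGCA and GCGC with any 1 base between them (NRF1), CCGGAAG (ETS), AAGATGGC (YY1) and TGACCTTG (ERR). The NRF1 letters were found in 19.4% of member promoters, against 9.11% of the 9021 promoters of genes tested and 4.71% of all 27457 promoters. ETS letters stood in 29.9%, 16.4% and 9.22% of the same sets, YY1 letters in 19.4%, 5.19% and 3.44%, and ERR letters in 5.97%, 0.931% and 1.48%. The CCAAT box, by contrast, was found in 35.8% of member promoters, against 37.5% of genes tested and 37.7% of all promoters, and GGGCGG, the GC box, in 43.3%, 60.8% and 34.9%. At least 1 of the NRF1, ETS, YY1 and ERR motifs was present in 38 of 67 member promoters (56.7%, against 27.4% of genes tested), and matches of different motifs overlapped in 0 cases. By complex, these 38 were 17 of 29 in complex I, 4 of 4 in complex II, 4 of 5 in complex III, 4 of 13 in complex IV and 9 of 15 in complex V. The NRF1 letters were found in 0 of the 13 complex IV promoters.

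The promoters below run from 150 bases before the start to 30 after it, 5′ to 3′ on the gene's own strand, with matches of the NRF1, ETS, YY1 and ERR motifs in capitals (CCAAT and GC boxes stay in lower case). They belong to members that rose in HAMSB relative to HAMS and that hold a match in this stretch, those of smallest p, at most 2 each in complexes I, IV and V and 1 each in complexes II and III.
Ndufa5 (chr4:53971206-53971385, minus strand): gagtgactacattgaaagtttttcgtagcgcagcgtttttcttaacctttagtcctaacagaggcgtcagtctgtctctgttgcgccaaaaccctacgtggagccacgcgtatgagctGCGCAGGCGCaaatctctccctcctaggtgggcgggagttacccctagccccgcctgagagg
Ndufb4 (chr11:76569028-76569207, plus strand): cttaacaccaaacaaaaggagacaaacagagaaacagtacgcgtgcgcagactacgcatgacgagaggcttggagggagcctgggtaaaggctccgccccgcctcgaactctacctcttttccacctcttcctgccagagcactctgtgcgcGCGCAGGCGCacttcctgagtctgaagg
Sdhb (chr5:158547784-158547963, plus strand): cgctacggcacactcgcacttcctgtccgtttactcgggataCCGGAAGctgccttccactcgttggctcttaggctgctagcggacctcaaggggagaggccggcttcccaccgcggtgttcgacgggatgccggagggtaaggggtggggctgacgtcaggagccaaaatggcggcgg
Uqcrh (chr5:134790853-134791032, minus strand): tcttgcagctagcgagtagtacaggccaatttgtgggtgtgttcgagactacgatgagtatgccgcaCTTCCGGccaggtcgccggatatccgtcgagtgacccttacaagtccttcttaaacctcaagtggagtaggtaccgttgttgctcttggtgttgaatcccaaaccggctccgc
Cox7a2 (chr8:89601120-89601299, minus strand): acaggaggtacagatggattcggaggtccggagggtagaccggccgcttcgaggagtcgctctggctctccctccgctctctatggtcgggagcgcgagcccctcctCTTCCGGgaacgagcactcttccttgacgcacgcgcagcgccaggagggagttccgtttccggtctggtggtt
Cox5b (chr9:46417687-46417866, plus strand): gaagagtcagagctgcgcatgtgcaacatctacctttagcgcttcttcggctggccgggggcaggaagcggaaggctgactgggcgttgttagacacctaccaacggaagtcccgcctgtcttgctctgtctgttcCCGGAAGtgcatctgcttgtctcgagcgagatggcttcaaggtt
Atp5pf (chr11:37375072-37375251, minus strand): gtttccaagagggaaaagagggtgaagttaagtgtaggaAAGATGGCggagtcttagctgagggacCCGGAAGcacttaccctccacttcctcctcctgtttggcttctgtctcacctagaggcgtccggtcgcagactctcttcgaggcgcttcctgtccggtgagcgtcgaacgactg
Atp5mk (chr1:255922018-255922197, minus strand): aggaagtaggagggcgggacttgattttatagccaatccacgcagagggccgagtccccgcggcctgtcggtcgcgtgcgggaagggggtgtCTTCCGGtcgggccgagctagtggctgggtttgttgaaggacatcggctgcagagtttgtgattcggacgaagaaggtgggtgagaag
The capitals are NRF1 letters in Ndufa5 and Ndufb4, ETS letters in Sdhb, Uqcrh, Cox7a2, Cox5b and Atp5mk, and a YY1 match followed by an ETS match in Atp5pf.

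Diet means of the members lay highest in HAMSB for every complex. The mean level over the 31 complex I genes was 8.33 ± 0.26 in HAW, 8.25 ± 0.25 in LAW, 8.68 ± 0.13 in HAMSB, 8.25 ± 0.25 in HAMS, 8.41 ± 0.38 in LAMS and 8.49 ± 0.25 in CON (SD over rats). For the 4 complex II genes it was 9.52 ± 0.29 in HAW, 9.49 ± 0.29 in LAW, 9.66 ± 0.11 in HAMSB, 9.34 ± 0.31 in HAMS, 9.57 ± 0.37 in LAMS and 9.58 ± 0.16 in CON. In complex II the SDs of all diets but HAMSB and CON were 0.29 or more, while the diet means lay between 9.34 and 9.66. The 7 complex III genes averaged 9.31 ± 0.28 in HAW, 9.26 ± 0.28 in LAW, 9.63 ± 0.13 in HAMSB, 9.24 ± 0.30 in HAMS, 9.42 ± 0.36 in LAMS and 9.43 ± 0.20 in CON. The 14 complex IV genes averaged 8.94 ± 0.20 in HAW, 8.83 ± 0.22 in LAW, 9.31 ± 0.17 in HAMSB, 8.88 ± 0.22 in HAMS, 9.00 ± 0.31 in LAMS and 9.03 ± 0.22 in CON. The spread over rats was smallest in HAMSB for all 5 complexes. The 16 complex V genes averaged 9.42 ± 0.21 in HAW, 9.39 ± 0.24 in LAW, 9.74 ± 0.15 in HAMSB, 9.37 ± 0.28 in HAMS, 9.47 ± 0.28 in LAMS and 9.55 ± 0.19 in CON. In a moderated F test over the 6 diets (limma, Benjamini-Hochberg adjustment over 10934 genes), 33 of 74 members passed an adjusted p of 0.05, against 30.7% of all genes. They were 16 of 32 in complex I, 0 of 4 in complex II (1 of 4 at an unadjusted p under 0.05), 4 of 7 in complex III, Cycs, 8 of 14 in complex IV and 4 of 16 in complex V. Atp5if1 had the smallest adjusted p of the members (0.00377).

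**Figure D1:**
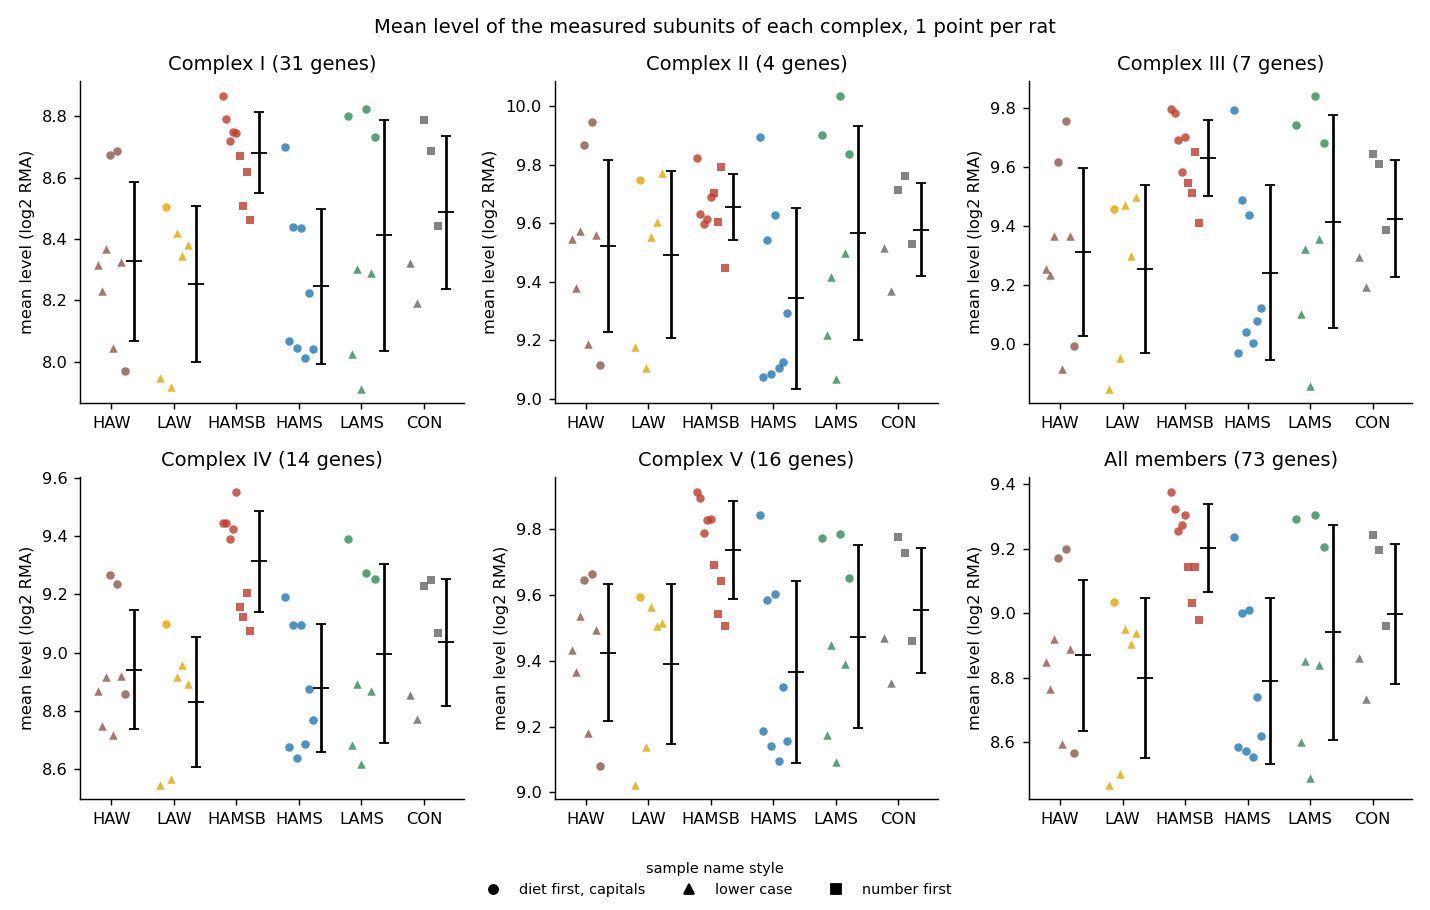
Mean log2 RMA level of the subunit genes of each complex and of the 73 protein-coding members tested, with 1 point per rat, diets on the horizontal axis, point shape for the style of the sample name, and bars for mean ± SD. The 9 HAMSB rats lie between 8.46 and 8.87 for complex I, whereas the HAMS rats have a median of 8.15 and a range of 8.01 to 8.70.

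Some arrays stood apart within their diets. The lymphoid level, the mean of 8 tested B cell and germinal centre markers on an array, was between 5.27 and 5.94 on 25 arrays and between 6.66 and 9.63 on the other 18, which hold 3 of 8 HAW, 2 of 6 LAW, 3 of 9 HAMSB, 6 of 8 HAMS, 3 of 7 LAMS and 1 of 5 CON arrays. It averaged 6.31 ± 1.15 in HAMSB, 7.94 ± 1.58 in HAMS and 6.60 ± 1.66 in LAMS. Absorptive colonocyte markers (12 genes) averaged 10.34 ± 0.20 in HAMSB, 9.84 ± 0.50 in HAMS and 10.20 ± 0.24 in LAMS, and lay at 9.24 or above on every array of these 3 diets. With diet in the model, 69 of 74 members (93.2%) were negatively associated with the lymphoid level, as were 3839 of all 10934 genes tested. In either direction, 53.3% of all genes were associated with it. As a description, deviations of the members' mean from the diet means followed those of the goblet marker mean (r = 0.86, rho = 0.82, and r = 0.82 without the 2 arrays of most extreme goblet level) and of the colonocyte marker mean (r = 0.66, rho = 0.63, and r = 0.59) over the 43 arrays, which share lymphoid level and name style. Against the lymphoid level the same deviations gave r = −0.79 (rho = −0.75). For the array means themselves, not taken as deviations and with all name styles together, r was −0.14 within the 25 arrays and −0.76 within the 18. The mean of all members ran from 8.73 to 9.38 on the 25 arrays of low lymphoid level and from 8.47 to 9.27 on the 18 others. The array names that the labels record come in 3 styles: diet code first in capitals (all 8 HAMS, 5 HAMSB, 3 LAMS, 3 HAW and 1 LAW arrays), lower case (4 LAMS, 5 HAW, 5 LAW and 2 CON) and number first (4 HAMSB and 3 CON). The style differed with the level of 45 of 74 members (60.8%, against 42.7% of all genes). Among arrays of low lymphoid level, the mean of all members lay between 9.01 and 9.38 on the 12 named in capitals, between 8.73 and 8.95 on the 9 in lower case and between 9.14 and 9.24 on the 4 named number first. Its r with the lymphoid level was −0.41 (rho = −0.22) on those 12 and −0.65 (rho = −0.47) on those 9. What the name styles stand for is not stated.

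**Figure D2:**
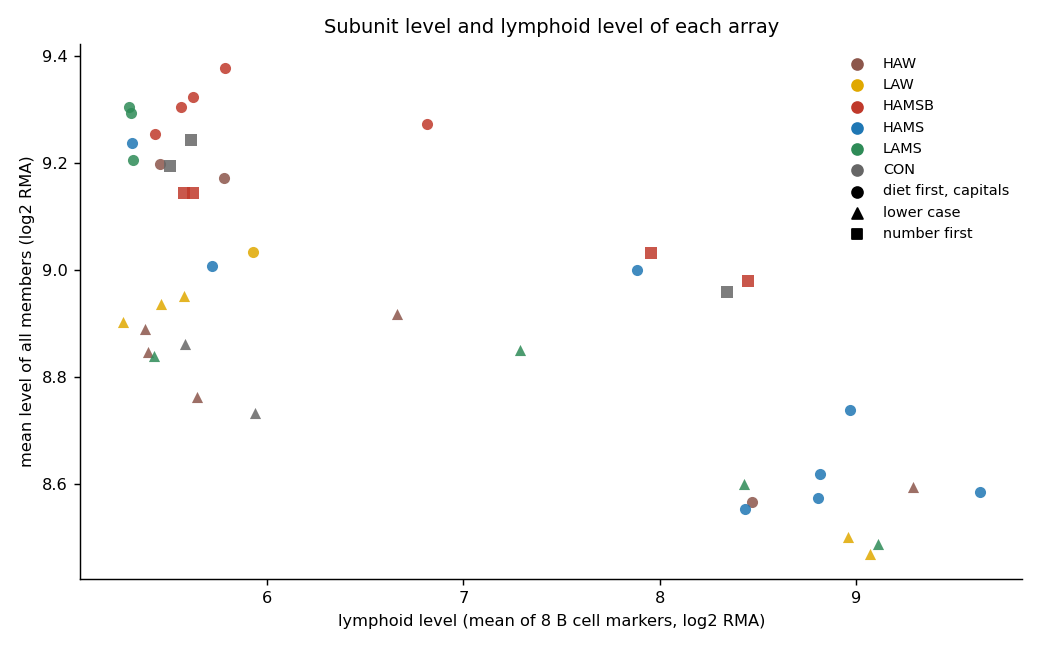
Mean log2 level of all members (vertical axis) against the lymphoid level (mean log2 level of 8 B cell markers, horizontal axis) for each of the 43 arrays, coloured by diet and shaped by name style. The members' mean falls to between 8.55 and 8.74 on the 5 HAMS arrays with a lymphoid level of 8.43 or above, and lower-case arrays lie below capital-named arrays at low lymphoid level.

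HAMSB differed from HAMS in more members than any other comparison. Of 74 members, 43 rose in HAMSB (58.1%) and 0 fell, where 14.2% of all genes tested rose. The median member difference was 0.42 and that of all genes 0.07, and 71 of 74 members had a difference above 0. By complex, 22 of 32 rose in complex I (median 0.43), 1 of 4 in complex II (0.30), 3 of 7 in complex III (0.38), Cycs, 10 of 14 in complex IV (0.46) and 6 of 16 in complex V (0.31). In complex I, 19 of 26 accessory genes rose (median 0.48) and 3 of 6 core genes (median 0.33). In complex V, 0 of the 5 genes of the catalytic F1 part passed (limma; 1 at an unadjusted p under 0.05, median 0.17) and 6 of the 11 other genes did (median 0.51). The difference between core and accessory genes was not tested.

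Ndufb6, an accessory subunit of the membrane arm of complex I, was measured at 8.15, 8.49 and 8.76 in HAMSB rats (lowest, median, highest), against 7.29, 7.53 and 8.17 in HAMS rats. Of the 9 HAMSB rats, 8 lay above all HAMS rats. The difference was 0.80 ± 0.19 (SE; limma, adjusted p = 0.00534), a 1.74-fold higher level. The other diets reached 7.50, 7.87 and 8.51 in HAW, 7.17, 7.48 and 8.18 in LAW, and 7.32, 7.78 and 8.77 in LAMS, with the 5 CON rats at 7.47, 7.88, 8.30, 8.74 and 8.82. The HAMSB range thus overlapped those of HAW, LAW, LAMS and CON. The accessory genes Ndufb4 (0.66 ± 0.16), Ndufa5 (0.64 ± 0.15), Ndufa3 (0.64 ± 0.19), Ndufa6 (0.61 ± 0.18), Ndufa7 (0.60 ± 0.17) and Ndufb2 (0.60 ± 0.17) rose by similar amounts in HAMSB. The calls also held Ndufa12 (0.52), Ndufb10 (0.50), Ndufa2 (0.48), Ndufs4 (0.47), Ndufb9 (0.45) and the pseudogene symbol Ndufs6-ps1 (0.54), which may share sequence with Ndufs6. Among core genes, those for the NADH-oxidising flavoprotein Ndufv1 (0.34 ± 0.10, adjusted p = 0.0197 in limma), its iron-sulfur partner Ndufv2 (0.49 ± 0.14) and the iron-sulfur subunit Ndufs7 (0.29 ± 0.09) rose. Ndufs1, the large iron-sulfur core subunit, differed by 0.32 ± 0.14 (adjusted p = 0.101 in limma), with 8.56, 8.98 and 9.42 in HAMSB rats and 8.12, 8.59 and 9.30 in HAMS rats. Ndufa9, an accessory subunit near the ubiquinone site, showed 0.02 ± 0.13, with 8.46, 8.78 and 9.26 in HAMSB and 8.49, 8.66 and 9.47 in HAMS.

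In complex II, Sdhb, the iron-sulfur subunit, had 9.48, 9.75 and 10.10 in HAMSB rats, against 8.92, 9.26 and 9.82 in HAMS rats. Only 3 HAMSB rats lay above all HAMS rats, and the difference was 0.48 ± 0.17 (adjusted p = 0.0436 in limma). The membrane anchor Sdhd had 0.43 ± 0.17, the flavoprotein Sdha 0.17 ± 0.11 and the anchor Sdhc 0.16 ± 0.13, and none of these passed. In complex III, the hinge protein gene Uqcrh had 9.50, 10.13 and 10.41 in HAMSB rats, against 8.89, 9.51 and 10.02 in HAMS rats. It rose by 0.57 ± 0.14 (adjusted p = 0.00545 in limma). The small subunits Uqcrb (0.66 ± 0.16) and Uqcrq (0.67 ± 0.20) rose too. The core proteins Uqcrc1 (0.22 ± 0.13) and Uqcrc2 (0.11 ± 0.13) and the Rieske iron-sulfur protein Uqcrfs1 (0.11 ± 0.16) did not pass. Cycs, which carries electrons between complexes III and IV, had 9.89, 10.45 and 10.91 in HAMSB rats, against 8.93, 9.63 and 10.61 in HAMS rats. The HAMS rat of highest Cycs lay above 6 of the 9 HAMSB rats, and the difference was 0.74 ± 0.18 (adjusted p = 0.00521 in limma).

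Complex IV held the largest difference of any member. Cox7b, a small nuclear subunit, had 8.42, 8.82 and 9.23 in HAMSB rats, against 7.24, 7.73 and 8.47 in HAMS rats. The groups overlapped by 2 of the 9 HAMSB rats, and the difference was 0.97 ± 0.22, a 1.96-fold higher level (adjusted p = 0.00373 in limma). In HAW, LAW and LAMS the medians of Cox7b were 7.81, 7.71 and 7.95, and the CON rats had 7.65, 7.76, 8.38, 8.49 and 8.71. Cox7c had 9.57, 9.97 and 10.41 in HAMSB rats, against 8.78, 9.33 and 9.83 in HAMS rats, with a difference of 0.70 ± 0.16. Cox7a2 (0.69 ± 0.19), Cox6c (0.56 ± 0.13), Cox5a (0.56 ± 0.14), Cox5b (0.47 ± 0.16), Cox8a (0.46 ± 0.16), Ndufa4 (0.45 ± 0.14) and Cox6a1 (0.41 ± 0.14) also rose in HAMSB. Tissue isoforms of complex IV gave unlike values. Cox4i1, the widely expressed form of subunit 4, differed by 0.24 ± 0.14 (adjusted p = 0.234 in limma), with 10.63, 10.96 and 11.18 in HAMSB and 10.40, 10.70 and 11.03 in HAMS. Cox4i2, the form known from lung and hypoxia, rose by 0.41 ± 0.13 (adjusted p = 0.0275 in limma) at a signal just above the filter, with 4.90, 5.40 and 5.92 in HAMSB and 4.33, 5.00 and 5.48 in HAMS. Cox6a2, the muscle form of subunit 6a, had 5.20, 5.46 and 5.58 in HAMSB and 5.14, 5.54 and 5.72 in HAMS, a difference of −0.05 ± 0.09. Cox7a2l, known for its part in supercomplexes, differed by −0.03 ± 0.13.

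In complex V the call of smallest p among all members was Atp5if1, which inhibits ATP hydrolysis by the complex. It had 10.66, 10.98 and 11.14 in HAMSB rats, against 9.73, 10.26 and 10.70 in HAMS rats. Here 7 of 9 HAMSB rats lay above all HAMS rats, and the difference was 0.62 ± 0.12, 1.54-fold (adjusted p = 0.00187 in limma). The remaining diets had 10.26, 10.43 and 10.70 in HAW, 10.06, 10.40 and 10.62 in LAW, 10.06, 10.48 and 10.94 in LAMS, and 10.18, 10.48, 10.68, 10.84 and 10.89 in CON. Atp5mk, a small membrane subunit, had 7.53, 8.70 and 9.25 in HAMSB rats, against 7.02, 7.58 and 8.37 in HAMS rats, a difference of 0.81 ± 0.23. The HAMSB rats were spread widely for this gene (SD 0.66). The membrane subunit Atp5mg (0.74 ± 0.23) and the stalk subunits Atp5pd (0.58 ± 0.14), Atp5pf (0.53 ± 0.14) and Atp5po (0.51 ± 0.15) rose as well. The catalytic F1 pair showed 0.17 ± 0.09 for Atp5f1a and 0.16 ± 0.08 for Atp5f1b (adjusted p = 0.188 and 0.16 in limma). For Atp5f1b the values were 11.29, 11.51 and 11.59 in HAMSB and 10.94, 11.28 and 11.78 in HAMS. The 3 genes of the c ring differed by 0.32 ± 0.14 (Atp5mc1), −0.02 ± 0.13 (Atp5mc2) and 0.31 ± 0.13 (Atp5mc3), without a call.

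**Figure D3:**
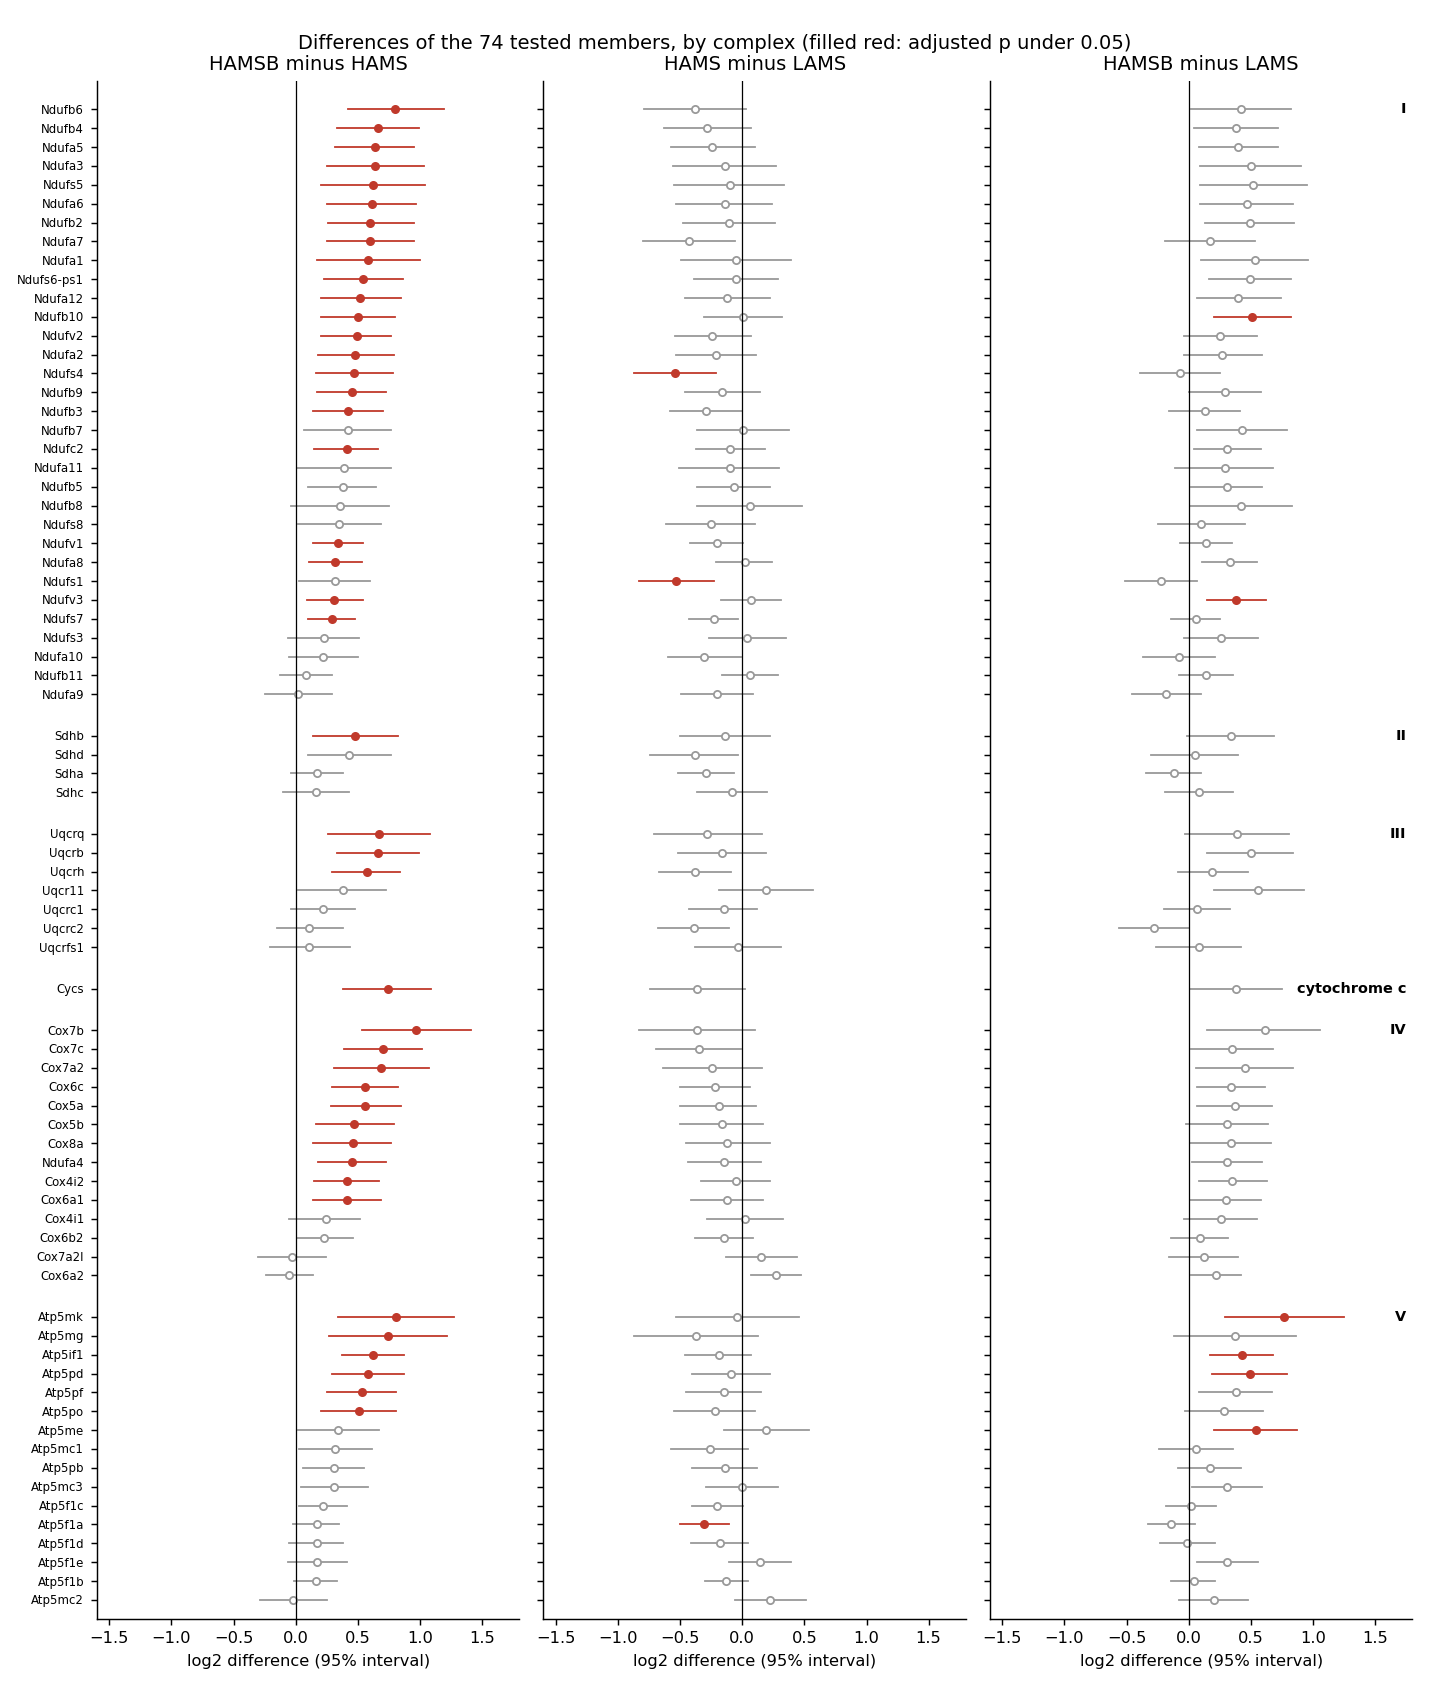
Log2 differences with 95% intervals for the 74 tested members, in rows grouped by complex, in HAMSB minus HAMS, HAMS minus LAMS and HAMSB minus LAMS. Filled red points have an adjusted p under 0.05: 43, 3 and 6 members, to the right of 0 in both HAMSB panels and to its left in HAMS minus LAMS.

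The lymphoid level moved with this comparison. Its median was 5.62 in HAMSB and 8.62 in HAMS, and the 2 HAMS arrays of low lymphoid level had a mean over all members of 9.24 and 9.01, against 8.55 to 9.00 on the other 6. All 9 HAMSB arrays lay between 8.98 and 9.38. Of the 8 B cell markers tested, 1 fell in HAMSB (Spib, −1.64 ± 0.57), as did 2 of 9 T cell markers, whereas 3 of 12 colonocyte markers (Krt20, Slc9a3, Aqp8) and 3 of 5 goblet markers (Agr2, Spdef, Clca1) rose. So did 2 of 6 fibroblast markers (Dcn, 0.58 ± 0.16, and Lum, 0.54 ± 0.16) and 1 of 6 enteric neuron and glia markers (Uchl1, 0.48 ± 0.17), where 14.2% of all genes rose and 2.48% fell. The goblet marker mean was 10.70 ± 0.21 in HAMSB and 10.21 ± 0.40 in HAMS, and its part in the result was not tested. Among the B cell markers listed, Ms4a1 and Fcer2 were under the filter. With the lymphoid level as a covariate 3 members rose (2.25% of all genes rose), namely Cox7b (0.61, adjusted p = 0.0353), Cox7c (0.48, 0.0401) and Atp5if1 (0.45, 0.0177, all limma), and the median member difference was 0.22. With name style as a block as well, an alternative chosen after seeing the data, 22 members rose and 1 fell, with 3.02% of all genes rising. The 22 were 7 in complex I, 3 in complex III, 9 in complex IV and 3 in complex V, and the one that fell was Ndufa9 (−0.36, adjusted p = 0.0416). Within the capital name style alone, 5 HAMSB against 8 HAMS arrays, 46 members rose and 14.1% of all genes did. Centring each array on its median left 25 rises, with 8.31% of all genes rising. Leaving out 1 array gave 25 to 55 rises, with 25 without HAMS replicate 4, 26 without HAMS replicate 2 or 6 and 27 without HAMS replicate 8, and 21 of the 43 passed in every such run. The share of all genes that rose in these runs is not given here.

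HAMS fell below LAMS in 3 members, and none rose. In this comparison 12% of all genes fell, so 3 of 74 (4.05%) was below the background. Ndufs1 had 8.12, 8.59 and 9.30 in HAMS rats, against 8.95, 9.26 and 9.38 in LAMS rats. Of the HAMS rats, 6 of 8 lay below all LAMS rats, and the difference was −0.53 ± 0.15 (adjusted p = 0.0185 in limma). HAW rats had 8.56, 9.27 and 9.61 for Ndufs1, LAW rats 9.08, 9.22 and 9.83, HAMSB rats 8.56, 8.98 and 9.42, and the CON rats 8.72, 8.75, 8.97, 9.08 and 9.32. Ndufs4, an accessory subunit needed for a stable NADH-binding module, had 7.02, 7.56 and 8.25 in HAMS rats, against 7.79, 8.21 and 8.40 in LAMS rats (−0.54 ± 0.16, adjusted p = 0.0264 in limma). Atp5f1a, the alpha subunit of F1, had 11.05, 11.31 and 11.83 in HAMS rats, against 11.53, 11.68 and 11.96 in LAMS rats (−0.31 ± 0.10, adjusted p = 0.0335 in limma). Next by p came Uqcrc2 (−0.39 ± 0.14), Cox6a2 (0.27 ± 0.10), Sdha (−0.29 ± 0.11), Uqcrh (−0.38 ± 0.14), Ndufa7 (−0.43 ± 0.18), Ndufs7 (−0.23 ± 0.10) and Sdhd (−0.38 ± 0.18), with adjusted p from 0.0516 to 0.122 in limma. Cox6a2 was the only one of these 10 above 0, at a signal near the filter. The median member difference was −0.15, against −0.08 for all genes; centring the arrays shifted the all-gene median to 0.02 and the member median to −0.04. After centring, Ndufs1 was lower (−0.42, adjusted p = 0.0418) and Cox6a2 higher (0.38, 0.0448), while Ndufs4 (0.0633) and Atp5f1a (0.176, all limma) did not pass. The share of all genes called that were lower changed with it, from 237 higher and 1308 lower to 484 higher and 466 lower.

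With name style as a block, 26 members fell in HAMS relative to LAMS (35.1%, against 6.28% of all genes), 12 of them in complex I, among them Ndufs4 and Atp5f1a but not Ndufs1 (−0.39, adjusted p = 0.096 in limma). Within the capital style alone (8 HAMS against 3 LAMS arrays) 26 fell as well (7.15% of all genes did), with a member median of −0.47. Of the 3 members above, Atp5f1a was among these 26, and Ndufs1 (adjusted p = 0.131 in limma) and Ndufs4 (0.0732) were not. All 3 of those LAMS arrays were of low lymphoid level, with means over all members of 9.20, 9.29 and 9.30, as were 2 of the 8 HAMS arrays. With the lymphoid level as a covariate 0 members passed (11 at an unadjusted p under 0.05) and the member median was 0.02. With both terms 5 fell (6.76%, against 0.613% of all genes), Ndufb6 (−0.57), Cox7b (−0.52), Ndufa7 (−0.51), Uqcrq (−0.48) and Ndufs8 (−0.46), none of which is among the 3. Without 1 array the count ran from 1 (LAMS replicate 3, HAMS replicate 6 or HAMS replicate 8) to 9 (HAMS replicate 1), with 6 without LAMS replicate 4 or HAMS replicate 5 and 5 without HAMS replicate 3. Ndufs1 passed in all 15 of these runs, whereas Ndufs4 was lost in 5 and Atp5f1a in 8. The share of all genes that fell in these runs is not given here. With array spread (interquartile range) as a covariate, however, 0 members passed, Ndufs1 included, and only 0.0183% of all genes fell. Array spread averaged 3.01 ± 0.14 in HAMS and 3.21 ± 0.09 in LAMS, and its part was not tested further. In the fit without covariates or blocks, where 12% of all genes fell, 5 of 6 fibroblast markers fell in HAMS, such as Dcn (−0.87 ± 0.17) and Col3a1 (−0.70 ± 0.14). So did 2 of 12 colonocyte markers (Vil1, Cdh17), 1 of 5 goblet markers (Agr2) and 1 of 7 smooth muscle markers (Myh11). For lists this short, the colonocyte, goblet and smooth muscle counts lie near the share of all genes. Of 8 B cell and 9 T cell markers 0 passed, but their median differences were 1.41 and 1.18, higher in HAMS. The lymphoid level had a median of 8.62 in HAMS (5.31 to 9.63) and 5.42 in LAMS (5.30 to 9.11). The part of these markers in the result was not tested.

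HAMSB lay above LAMS in 6 members and below it in none, where 2.19% of all genes were higher. The 3 maize comparisons share their diet groups, so their results are not independent. Atp5mk had 7.53, 8.70 and 9.25 in HAMSB rats, against 7.20, 7.64 and 7.93 in LAMS rats (0.77 ± 0.24, adjusted p = 0.0422 in limma). Atp5me, a membrane subunit at the dimer interface of complex V, had 9.65, 10.01 and 10.49 in HAMSB rats, against 8.81, 9.46 and 10.03 in LAMS rats (0.54 ± 0.17). Atp5pd had 9.98, 10.36 and 10.44 in HAMSB rats, against 9.10, 9.67 and 10.30 in LAMS rats (0.49 ± 0.15). For Atp5if1, 5 of 9 HAMSB rats lay above all 7 LAMS rats (0.43 ± 0.13). Ndufb10 had 8.41, 8.88 and 9.18 in HAMSB, against 7.84, 8.16 and 9.06 in LAMS (0.51 ± 0.15). Ndufv3, an accessory subunit of the NADH module, had 8.53, 9.18 and 9.43 in HAMSB, against 8.48, 8.63 and 8.96 in LAMS (0.38 ± 0.12). Its other probe set gave smaller values, 0.14 in HAMSB minus HAMS and −0.09 in HAMS minus LAMS, against 0.31 and 0.07 on the one used. The Ndufv3 call thus rests on 1 of 2 unlike probe sets. Adjusted p-values of these 6 ran from 0.0373 to 0.0422 in limma. Just past the threshold were Uqcr11 (0.56 ± 0.18), Ndufa8 (0.33 ± 0.11), Ndufs6-ps1 (0.49 ± 0.16) and Uqcrb (0.50 ± 0.17), at 0.051 to 0.0636. The member median was 0.31, against 0.01 for all genes, and 66 of 74 members were above 0.

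These calls were sensitive to the arrays used. Without any of 9 single arrays, LAMS replicates 2, 3, 4 and 6 and HAMSB replicates 1 to 5, 0 members passed, and without LAMS replicate 1 there were 19. Without LAMS replicate 5 there were 12, without LAMS replicate 7 there were 11 and without HAMSB replicate 9 there were 13. The share of all genes passing in these runs is not given here, so the swing cannot be read as particular to the members. Within the capital style (5 HAMSB against 3 LAMS arrays) 0 members passed in limma (15 at an unadjusted p under 0.05) and the member median was 0.05. There the mean of all members was 9.25, 9.27, 9.30, 9.32 and 9.38 in HAMSB and 9.20, 9.29 and 9.30 in LAMS. The 4 lower-case LAMS arrays had means of 8.49, 8.60, 8.84 and 8.85. With name style as a block 3 members rose, Atp5mk (1.12), Ndufv3 (0.44) and Uqcrb, where 1.37% of all genes rose. With the lymphoid level as a covariate 21 rose and 1 fell, while 4.42% of all genes rose. With both, 3 rose and 3 fell (4.05% each way), close to the 3.32% of all genes that rose and the 4.31% that fell. The part of the name style and of the lymphoid level in these differences was not tested beyond these fits.

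**Figure D4:**
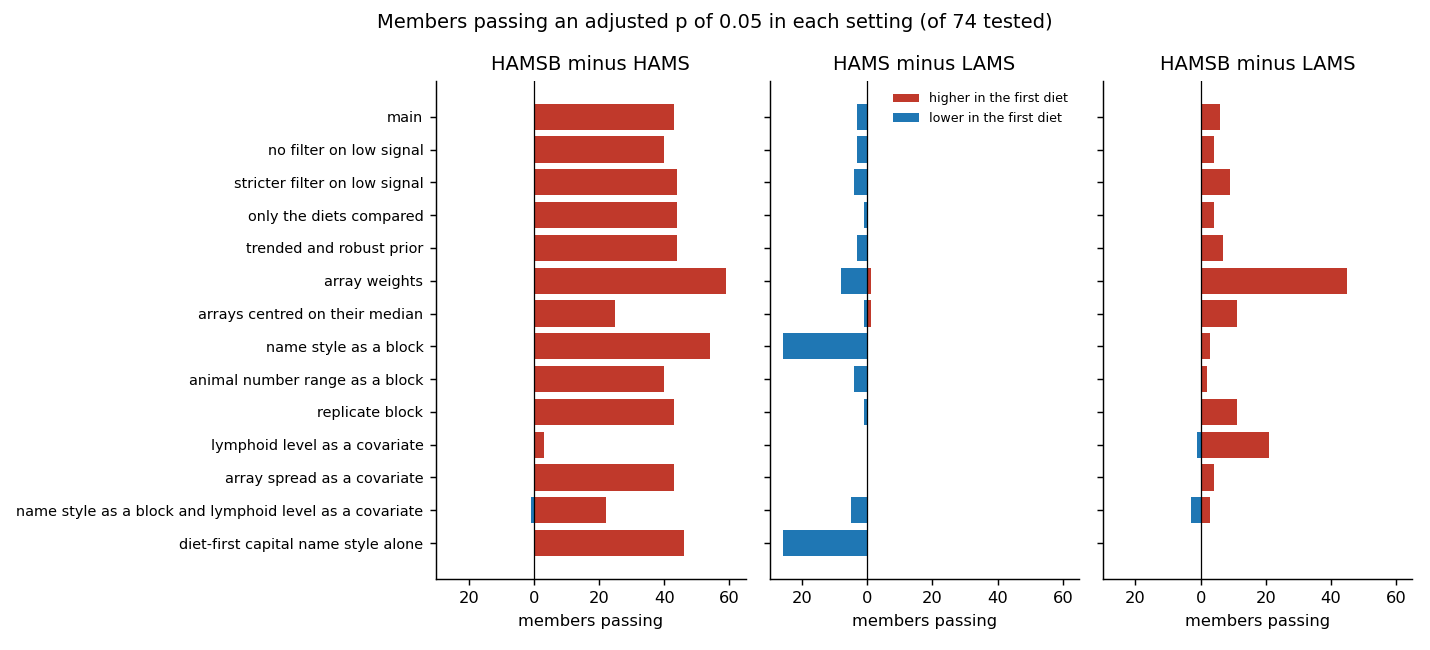
Number of members past an adjusted p of 0.05 in each analysis setting (rows) for the 3 maize comparisons, with members higher in the first-named diet to the right of 0 and those lower to the left. HAMSB minus HAMS holds 25 or more rises in all but the settings with the lymphoid level, where it holds 3 and 22, whereas HAMSB minus LAMS runs from 0 to 45. The 45 came with array weights, where 15.6% of all genes rose.

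No member passed between HAW and LAW, between LAW and LAMS or between LAMS and CON in limma, and 0% of all genes did. At an unadjusted p under 0.05 there were 0, 1 and 0 members and 212, 192 and 938 genes of all. High-amylose wheat showed the smallest p for Ndufb6 (0.40 ± 0.21, HAW minus LAW), followed by Atp5mc2 (−0.20 ± 0.15) and Cox7b (0.32 ± 0.24), and the member median was 0.06. In LAW minus LAMS, Ndufb6 (−0.50 ± 0.22), Cox7b (−0.48 ± 0.25) and Ndufb4 (−0.33 ± 0.19) had the smallest p, and 68 of 74 members were below 0 with a median of −0.12. Of the LAW arrays 5 of 6 were named in lower case, and of the LAMS arrays 4 of 7. In LAMS minus CON, Ndufb10 (−0.30 ± 0.18), Uqcrc2 (0.27 ± 0.16) and Cox4i2 (−0.25 ± 0.16) came first, with a median of −0.06. The 95% interval for Ndufb10 ran from −0.66 to 0.05.

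The amylose effect in wheat (HAW minus LAW) was set against that in maize (HAMS minus LAMS) as a test of their difference. No member passed, 7 had an unadjusted p under 0.05, and 0.0274% of all genes passed. The smallest p belonged to Ndufs4 (0.70 ± 0.24, adjusted p = 0.189), Atp5f1a (0.39 ± 0.14, 0.203) and Ndufb6 (0.78 ± 0.29, 0.221, all limma), each higher in wheat. Array weights gave calls for Ndufs4 (0.65) and Atp5f1a (0.40), where 8.08% of all genes were higher, so that the 2 member calls (2.7%) lay below the background. Name style as a block gave calls for Ndufb6 (1.06) and Ndufs8 (0.67), with 0.348% of all genes higher. Name style with the lymphoid level gave calls for Ndufb6 (0.80) and Cox7b (0.65), with 0.219% of all genes higher.

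Members varied together between rats of a diet. Over the 2628 pairs of the 73 protein-coding members tested, the correlation of deviations from the diet means had a median of 0.62 (lowest −0.37, highest 0.95), across 43 arrays that share lymphoid level and name style as above. The median was 0.67 within complex I, 0.72 within complex II, 0.55 within complex III, 0.43 within complex IV and 0.59 within complex V. Ndufb2 (median correlation with the others 0.81) and Cox5b (0.78) were the most typical. The isoforms of low signal stood apart, Cox6b2 at 0.00, Cox6a2 at 0.08 and Cox4i2 at 0.15, as did Ndufs1 at 0.15 and Ndufa10 at 0.16 at a well measured level. Of 12 members with a further probe set, most gave like differences in HAMSB minus HAMS, such as 0.73 and 0.74 for Cycs and 0.79 and 0.81 for Atp5mk, but Ndufv3 had 0.14 on its other probe set, against 0.31 on the one used. An NRF1, ETS, YY1 or ERR match stood in 21 of the 35 promoters of members that rose in HAMSB relative to HAMS, and in 17 of the 32 other member promoters.

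Genes around the chain were counted in 4 lists, to be read against the 14.2% of all genes that rose in HAMSB minus HAMS and the 12% that fell in HAMS minus LAMS. Their calls come from the fit without covariates or blocks alone. In HAMSB minus HAMS the list medians were 0.24 (TCA cycle and pyruvate entry), 0.16 (assembly factors), 0.03 (regulators) and 0.23 (ubiquinone entry, carriers and pores). The median of all genes was 0.07, so the regulators as a list did not lie above it. Relative to HAMS, HAMSB had 5 of 18 genes of the TCA cycle and pyruvate entry higher and none lower, with the mitochondrial pyruvate carrier genes Mpc1 (0.61 ± 0.16) and Mpc2 (0.62 ± 0.17) and the dehydrogenases Idh2 (0.40 ± 0.12) and Mdh2 (0.26 ± 0.09) first by p. Of 30 genes listed as assembly factors 9 rose, led by factors of complex IV assembly, Cox20 (0.58 ± 0.11), Coa3 (0.58 ± 0.13), Cox19 (0.48 ± 0.13) and Cox17 (0.51 ± 0.15). The 9 also held Ndufab1 (0.47 ± 0.15), a complex I subunit gene whose symbol falls outside the member rule. Of 18 regulators and genes of mitochondrial DNA expression 5 rose: the coactivators Ppargc1b (0.38 ± 0.11) and Ppargc1a (0.63 ± 0.23, adjusted p = 0.0498 in limma), Ssbp1, Slirp and Tefm. Of 22 genes for entry at ubiquinone, carriers and pores 5 rose, with the sulfide oxidase Sqor (0.64 ± 0.17), the ADP/ATP carrier Slc25a4 (0.48 ± 0.13) and the electron transfer flavoprotein subunit Etfb (0.56 ± 0.17) first.

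In HAMS minus LAMS the genes of these lists that passed all fell. They were 4 of 18 TCA genes, among them Dld (−0.87 ± 0.21), a subunit shared by several dehydrogenase complexes, and Ogdh (−0.34 ± 0.09), and 5 of 22 ubiquinone and carrier genes, among them Sqor (−0.72 ± 0.18) and Etfdh (−0.49 ± 0.14). Of the regulators 2 of 18 fell, the helicase Twnk (−0.41 ± 0.10) and Ppargc1a (−0.72 ± 0.24), and of the assembly factors 2 of 30, Acad9 (−0.34 ± 0.10) and Cox20 (−0.38 ± 0.12), and neither of these counts exceeded the share of all genes that fell. In HAMSB minus LAMS, Cox17, the copper chaperone for complex IV, rose by 0.70 ± 0.16 and Coa3 by 0.47 ± 0.13, and the uncoupling protein Ucp2 rose by 0.31 ± 0.09. Below LAMS in HAMSB lay Pdha1 (−0.39 ± 0.11), Dld (−0.69 ± 0.20), Acad9 (−0.41 ± 0.10) and Lrpprc (−0.40 ± 0.12), which binds mitochondrial messenger RNA. By list, 2 of 30 assembly factors and 1 of 22 ubiquinone and carrier genes were higher, where 2.19% of all genes were. Lower were 2 of 18 TCA genes, 1 of 30 assembly factors and 1 of 18 regulators, where 4.59% of all genes were.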

How the data were processed

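Gene expression in distal colon was measured on 43 arrays, 1 per rat. The deposited values are on the log2 scale and per the submitters' processing notes come from RMA, with no version given in the sources used here. RMA as usually run equalises the arrays' distributions, so a change in most genes at once would be reduced. Of 29214 probe sets, 15310 carried 1 gene symbol in the platform annotation, 323 carried several and were not used, and the others carried none. For each of 14506 symbols the probe set of the highest mean was kept, and 10934 genes had a median of at least 4.75, the 25th percentile.

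A mean per diet was fitted with limma 3.58.1 (R 4.3.3, lmFit and eBayes) over all 43 arrays, with 7 contrasts and an F test, two-sided, adjusted over 10934 genes by Benjamini-Hochberg with a threshold of 0.05. The fit was tested on simulated data with independent noise for each gene. Those data had no shared lymphoid level or name style, so the test cannot tell how these bear on the calls. Arrays carry no depth, so the number of rats limits the precision. The label HAM was read as HAMS. Whether rats of a diet shared a cage or batch is not stated, so p-values measure the spread between these animals only. The rule for named genes took the members that passed, at most 30 by smallest p, or the 10 of smallest p where fewer than 10 passed, and fixed core subunits and isoforms. Other members are named to complete a complex, an isoform group or a set of calls and were chosen after their values were seen, as were those shown for a change of sign. Members, lists and tests were chosen with earlier results of these data known. Alternatives were other filters, priors, weights, array centring, blocks, covariates and leaving out each array. The fits with name style and lymphoid level together, and of the capital name style alone, were chosen after seeing the data. Figures were drawn with matplotlib 3.10.9.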

Additional observations from a re-analysis of the deposited data

Results flagged for a closer look

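Over 132 sets of values (the mean levels of the 5 complexes and 17 members, each in 6 diets), 4 held an array whose gap to its neighbour was large for the diet's range, where chance gives about 5% of sets. Ndufs1 in LAW replicate 6 was high at 9.83, with the next LAW array at 9.35. Uqcrh in CON replicate 3 was high at 10.22, with the next CON array at 9.97. Atp5f1a in HAMSB replicate 6 was high at 11.90, with the next HAMSB array at 11.64. Atp5mk in HAW replicate 8 was low at 6.61, with the next HAW array at 7.54.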

How the results depend on the processing

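Members past the threshold numbered 0 in LAMS minus CON, HAW minus LAW and LAW minus LAMS under every alternative run. In HAMSB minus HAMS the 43 members became 25 with arrays centred on their median, 3 with the lymphoid level as a covariate and 23 with that covariate beside blocks for name style; the other alternatives gave 40 to 59, and leaving out 1 array 25 to 55. In HAMS minus LAMS the 3 became 1 with only the diets compared, 9 with array weights (8 lower and 1 higher), 2 with centring (1 lower and 1 higher), 26 with name style as a block, 0 with the lymphoid level, 0 with array spread (interquartile range) as a covariate, 5 with name style and lymphoid level, 26 in the capital style alone, and 1 to 9 without 1 array. With array weights in HAMS minus LAMS, 26.6% of all genes were lower and 10.5% higher. Of the members, 10.8% were lower and 1.35% higher there, so these 9 calls lay below the background. Over all genes, centring changed 1550 higher and 271 lower to 909 and 723 in HAMSB minus HAMS. In HAMSB minus LAMS the 6 became 45 with array weights, 11 with centring, 3 with name style as a block, 2 with the range of animal numbers as a block, 22 with the lymphoid level, 0 in the capital style alone, and 0 to 19 without 1 array. Calls over all genes grew with array weights too, from 2.19% higher and 4.59% lower to 15.6% higher and 18.5% lower. In the F test the 33 became 63 with array weights, 12 with name style and lymphoid level, and 17 to 45 without 1 array (17 without HAMSB replicate 5, 20 without HAMSB replicate 2, 21 without HAMSB replicate 1). Shares of all genes are not given here for these F tests or for the runs without 1 array. The difference of the amylose effects gave 2 members with array weights, 2 with name style as a block, 2 with both terms and 0 to 0 without 1 array. The causes were not tested. No member called in a comparison changed sign under an alternative, but Cox4i1 (−0.41, against 0.02) and Ndufb7 (−0.59, against 0.01) in HAMS minus LAMS in the capital style, and Ndufa9 in HAMSB minus HAMS (−0.36, against 0.02) and Ndufs8 in HAMSB minus LAMS (−0.38, against 0.10) with both terms, were called with the sign opposite to that of all arrays.

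Whether replicate numbers pair rats across diets is not stated. Deviations of same-numbered arrays had a median correlation of −0.05 over 94 pairs (−0.79 to 0.64), against 0.02 over 671 other pairs (−0.77 to 0.86). Such correlations cannot decide the question, since arrays also share lymphoid level and name style. With the replicate block the counts were 43 in HAMSB minus HAMS, 1 in HAMS minus LAMS, 11 in HAMSB minus LAMS and 29 in the F test. Array signal limits Cox4i2, Cox6a2 and Cox6b2 most.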
